A study of Mus musculus with 26 samples.

Results

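The 40 genes described here are Myc and 39 genes of ribosome biogenesis, chosen by symbol from a fixed list of names among 23168 gene symbols held by all 26 files. Every one of the 40 was found in all 26 libraries and passed the filter on low values (at least 1 FPKM, the fragments mapped to a gene scaled for its length and for the size of the library, in at least 4 libraries), which 11663 symbols passed. The study sequenced RNA of sorted mouse thymocytes and of cells grown from them. All cells came from wild-type C57BL/6 mice aged 6 to 8 weeks. DN1eP precursors (4 libraries) were thymocytes gated as Lin-, CD44+, CD25-, CD24low, CD5+, CD27+, Ly108- and CXCR3+, and were negative for the surface Valpha14Jalpha18 T cell receptor. DN1eP-NKT cells (4 libraries) were positive for that receptor and had grown from DN1eP thymocytes during 10 days on an OP9/Dll-1 stromal layer, a mouse bone marrow stromal line that presents a Notch ligand, with mouse IL-2 and IL-7 at 5 ng/ml each. Natural killer T (NKT) cells of the thymus bound alphaGalCer-loaded CD1d dimer and carried TCRbeta, and were split by CD44 and NK1.1 into stage 1 (NKT-1, neither marker, 5 libraries), stage 2 (NKT-2, CD44 without NK1.1, 7 libraries) and stage 3 (NKT-3, both markers, 6 libraries). The labels do not say whether libraries of 1 group came from separate animals or cultures, so every p-value measures the spread between these libraries only, which may be technical.

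Ribosomes are built in the nucleolus, where RNA polymerase I transcribes the long precursor of ribosomal RNA. Small nucleolar ribonucleoproteins (snoRNPs) modify that precursor, the box C/D class by methylating ribose and the box H/ACA class by converting uridine to pseudouridine, while separate sets of assembly factors shape the small and the large subunit. The transcription factor Myc, which binds DNA as a pair with Max at sequences called E-boxes, is known as an activator of many of these genes, and growing and dividing lymphocytes are known to express them highly.

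The canonical E-box is CACGTG, a palindrome that reads the same on both strands. It was searched in the stretch from 250 bases before to 50 bases after the annotated start of each gene in RefSeq (GRCm38.p6), and 35 of the 40 genes matched an entry by symbol. At least 1 CACGTG lay in 9 of the 35 (25.7%) and in 2187 of all 27025 symbols (8.09%). The second share takes every symbol with an entry, expressed here or not, whereas the 35 all passed the filter on low values. When only the bases before the start were searched, the shares were 8.57% and 6.86%. The 9 genes were Rrn3, Utp20, Wdr43, Imp4, Ltv1, Tsr1, Pes1, Nop2 and Mybbp1a. The windows below are shown because these genes recur in the comparisons, Rrn3 with both of its E-boxes. Each is read 5′ to 3′ on the strand of the gene, with the E-box in capitals, at chr16:13780472-13780501 and chr16:13780639-13780668 (Rrn3, plus strand), chr1:34439696-34439725 (Imp4, plus), chr6:125131811-125131840 (Nop2, plus), chr11:74898092-74898121 (Tsr1, plus), chr10:13193092-13193121 (Ltv1, minus) and chr11:3963965-3963994 (Pes1, plus). The E-box begins before the start in Rrn3, Imp4 and Nop2 and after it in Tsr1, Ltv1 and Pes1.
Rrn3 distal: gagcgccaaggtCACGTGcacacgcctcta
Rrn3 proximal: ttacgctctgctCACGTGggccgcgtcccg
Imp4: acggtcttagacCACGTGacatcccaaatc
Nop2: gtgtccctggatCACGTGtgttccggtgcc
Tsr1: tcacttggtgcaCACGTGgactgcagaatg
Ltv1: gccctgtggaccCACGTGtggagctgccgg
Pes1: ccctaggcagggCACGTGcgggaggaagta
A match describes the letters of the sequence and was not measured as binding.

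The libraries fell into 2 sets of 13 by the median FPKM of rows at 1 FPKM or more, which was 7.58 to 9.81 in the lower set and 12.97 to 13.8 in the higher set. The lower set holds all 4 DN1eP libraries with NKT-1 libraries 3 to 5, NKT-2 libraries 5 to 7 and NKT-3 libraries 4 to 6. The higher set holds all 4 DN1eP-NKT libraries with the other 9 thymic libraries. DN1eP and DN1eP-NKT were therefore each compared with the thymic stages of their own set. All 7 T and NKT cell marker genes were above 0 in every library, but their sum was lower in DN1eP-NKT, at 1171 to 1682 FPKM against 1785 to 3034 FPKM in the thymic libraries of the same set. Of the 7, 3 were called lower against NKT-1, 5 against NKT-2, 5 against NKT-3 and 7 against DN1eP, and none higher. Of all tested genes 9.24%, 10.5%, 11.4% and 17% were called lower in these comparisons. The comparison with DN1eP crosses the library sets and rests on an assumption given below. Zbtb16, the lineage factor of NKT cells, was at 4.51 to 6.90 FPKM in DN1eP-NKT and at 12.8 to 113 FPKM in the thymic libraries of that set. In the lower set it was at 0.956 to 3.52 FPKM in NKT-3. Library 6 of NKT-2 and library 5 of NKT-3 held transcripts of B cell markers (summed 143 and 44.3 FPKM over 8 genes) and of erythroid markers (199 and 827 FPKM over the 9 found, at most 14.3 FPKM in any other library). B cell markers also summed to 22.5 to 50.2 FPKM in DN1eP, where Cd79b made up most of it (20.8 to 46.0 FPKM) and Ms4a1 and Pax5 were at 0, and to 17.1 to 26.6 FPKM in DN1eP-NKT, where Cd22 did (15.5 to 23.0 FPKM), against at most 2.39 FPKM in NKT-1. The 12 stromal marker genes, of which 1 or 2 were at 0 in each DN1eP-NKT library, summed to 93.1 to 465 FPKM in DN1eP-NKT, to 1.29 to 34.2 FPKM in DN1eP and to at most 2.92 FPKM in thymic NKT libraries. The 10 myeloid markers summed to 398 FPKM in DN1eP library 1 and to 36.5 to 44.5 FPKM in the other 3, to 95.2 FPKM in NKT-2 library 6 and 28.2 FPKM in NKT-3 library 5, and to at most 16.7 FPKM elsewhere. Ribosomal protein transcripts set NKT-2 libraries 6 and 7 and NKT-3 libraries 5 and 6 apart, with sums of 88949 to 113167 FPKM against 173091 to 241063 FPKM in the other libraries of the lower set. The number of reads is unknown. The half-width of the deposited confidence interval of the 40 genes had a median between 4.80% and 23.7% of the value over libraries. This median was 18.6% to 23.5% in DN1eP libraries 2 to 4. DN1eP library 1 was at 5.97%, and the thymic libraries of the lower set lay at 4.80% to 6.52%. Comparisons of DN1eP within its set therefore join libraries of unlike precision. In bulk RNA, fewer cells of a type and less RNA per cell cannot be told apart.

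Most of the 40 genes differed in level between the library sets. In the 18 thymic libraries, with stage in the fit, 20 were higher and 13 lower in the higher set (adjusted p under 0.05, limma), where 54% and 20.7% of all tested genes were so called. The median of all genes was 0.51 higher in that set. The split turned with scaling, to 12 higher and 20 lower with upper-quartile scaling (median of all genes 0.13) and to 11 and 18 with quantile normalization (-0.06). Fibrillarin (Fbl), the methyltransferase of box C/D snoRNPs, was 3.16 ± 0.29 higher on the log2(FPKM + 1) scale (± SE). Gar1 of the box H/ACA class was 3.10 ± 0.12 higher, and Ubtf, the upstream binding factor of RNA polymerase I, 2.98 ± 0.16 higher. Nop10, a small core protein of the box H/ACA class, was 1.81 ± 0.14 higher in the lower set. For 8 genes no library of 1 set reached into the range of the other over all 26 libraries. These were Ddx21, Fbl, Gar1, Imp3, Ncl, Ubtf and Utp20, all above in the higher set, and Nop10, above in the lower set. Over all tested genes 23.7% lay wholly above in the higher set and 3.65% in the lower set. Fbl, Gar1, Ubtf and Nop10 kept their direction and call under both of these scalings. Myc itself differed by 0.12 ± 0.16 (adjusted p = 0.498, limma), and by -0.45 (adjusted p = 0.0128) and -0.18 (adjusted p = 0.265) with upper-quartile and quantile scaling. The deposited FPKM of Nop10 lay outside its own deposited interval in 23 of 26 libraries and that of Fbl in 17, while Myc was never outside. Imp3 was outside in 14 libraries, and Nop56, Nop58, Nhp2 and Polr1c in 13 each. Levels of such genes are therefore read within a set, and the stage comparisons carry library set as a term. Reading within the lower set does not even this out. There, 1 of the 40 genes was outside in each of DN1eP libraries 2, 3 and 4. In DN1eP library 1 there were 12, and in the thymic libraries of the set 10 to 18.

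**Figure D1:**
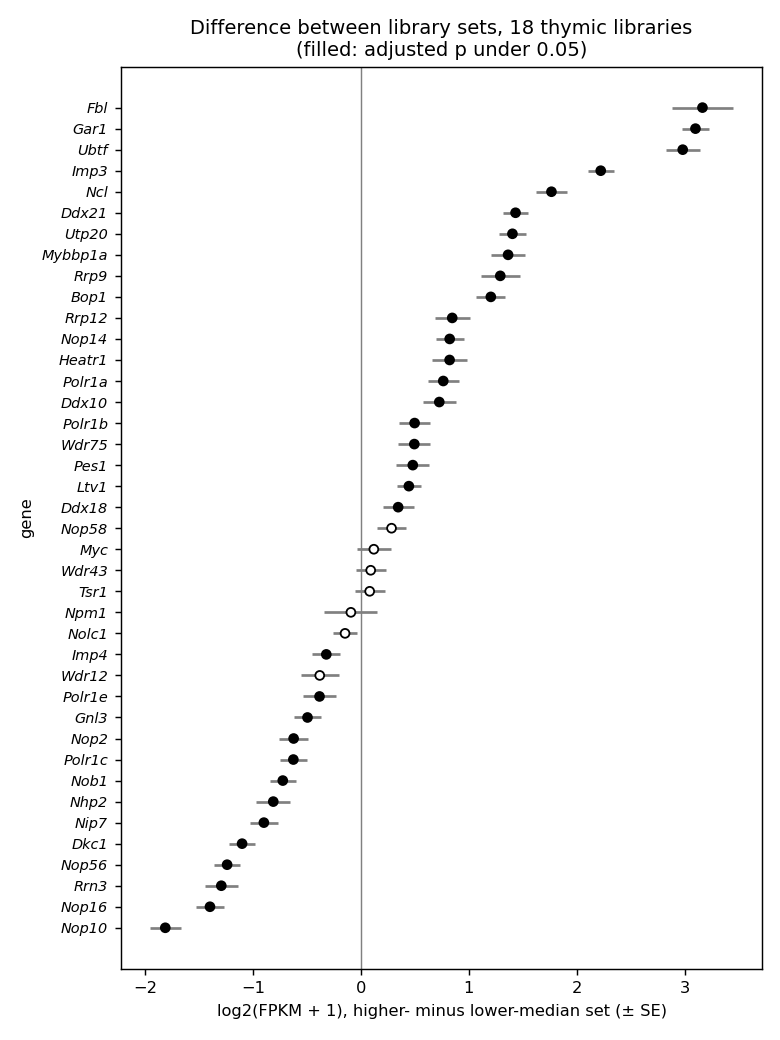
Difference between the library sets for each of the 40 genes in the 18 thymic libraries, as log2(FPKM + 1) in the higher-median minus the lower-median set, with bars of 1 standard error; filled points have an adjusted p under 0.05. The points run from Nop10 at -1.81 to Fbl at 3.16, and Myc lies near 0 at 0.12.

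Myc (mm9 chr15:61816896-61821916 in the deposited files) was on average lowest in DN1eP and highest in DN1eP-NKT. The DN1eP libraries held 31.1, 10.8, 21.3 and 11.9 FPKM. The DN1eP-NKT libraries held 48.4, 83.0, 98.4 and 102 FPKM. Thymic NKT cells lay in between, with a wide spread at stage 1. NKT-1 was at 28.5, 35.1 and 82.9 FPKM in the lower set and at 46.3 and 45.5 FPKM in the higher set. NKT-2 was at 27.5, 33.9 and 41.5 FPKM in the lower and 35.4, 30.0, 36.9 and 38.4 FPKM in the higher set. NKT-3 was at 43.3, 53.1 and 40.7 FPKM in the lower and 46.0, 61.9 and 54.4 FPKM in the higher set. Within the higher set every NKT-3 library lay above every NKT-2 library, while in the lower set NKT-2 library 7 at 41.5 FPKM lay above NKT-3 library 6. DN1eP overlapped NKT-1 and NKT-2 through its library 1 and lay wholly below NKT-3. DN1eP-NKT lay wholly above NKT-1 and NKT-2 of its set and overlapped NKT-3 through its library 1.

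**Figure D2:**
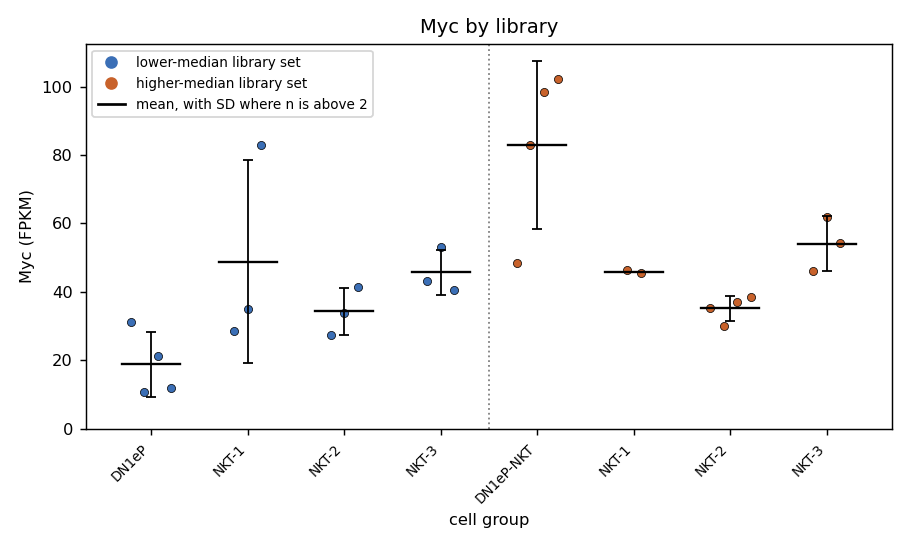
Myc in each of the 26 libraries (points, FPKM) by cell group, with the mean as a bar and the SD where a group has more than 2 libraries in the set; blue points are the lower-median and orange points the higher-median library set. DN1eP lies at 10.8 to 31.1 FPKM, DN1eP-NKT at 48.4 to 102 FPKM, and 1 NKT-1 library at 82.9 FPKM stands above the other thymic libraries.

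Among the thymic stages, NKT-3 cells had lower transcript levels of ribosome biogenesis genes than NKT-2 cells, whereas Myc was higher. With library set as a term over 18 libraries, 21 of the 40 genes were lower in NKT-3 (adjusted p under 0.05, limma), against 20% of all tested genes. Only 1, Myc, was higher, against 11.8% of all genes. The median difference of the 40 genes was -0.46 on the log2(FPKM + 1) scale, and that of all tested genes was -0.06. In either direction 22 of the 40 and 31.8% of all genes were called. The 22 had the same direction within each library set, but they were called on these same libraries, so this adds no support. Of all 40 genes, 37 were below 0 in the lower set alone and 35 in the higher set alone. In the higher set alone 16 of the 40 passed the test, where 3185 of 11663 tested genes did. In the lower set alone 2 of the 40 passed, where 1064 of all tested genes did. The fit without a filter on low values called 10 of the 40 and 2186 of 23168 genes. The fit without the library set term called 5 of the 40 and 1323 of 11663 genes.

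Myc rose by 0.51 ± 0.18 from NKT-2 to NKT-3 (± SE, adjusted p = 0.0355, limma, 7 and 6 libraries). Within the sets the difference was 0.60 ± 0.15 in the higher set (adjusted p = 0.0127) and 0.41 ± 0.33 in the lower set (adjusted p = 0.532). This call is close to the threshold. It was lost when any of libraries 1, 2 or 5 of NKT-2 or any of libraries 2, 3 or 5 of NKT-3 was left out (0.45 to 0.51, adjusted p 0.0512 to 0.0902), and when library 6 of NKT-2 and library 5 of NKT-3 were dropped together (0.49, adjusted p = 0.0745) or the 4 libraries with low ribosomal protein transcripts were (0.60, adjusted p = 0.0508).

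Of the RNA polymerase I group, 2 of 6 genes fell and none rose from NKT-2 to NKT-3. Polr1e, a subunit of the enzyme, was at 20.0, 9.55 and 14.2 FPKM in NKT-2 and at 10.4, 7.40 and 5.63 FPKM in NKT-3 of the lower set. In the higher set it was at 10.2, 15.7, 11.9 and 14.1 FPKM and at 4.87, 5.50 and 6.57 FPKM. The stages did not overlap in the higher set and overlapped in the lower set. The fall of 0.95 ± 0.18 was the largest among the 40 genes (adjusted p = 0.000249, limma). Rrn3, which brings the polymerase to its promoter and whose promoter holds the pair of E-boxes printed above, fell by 0.55 ± 0.18 (adjusted p = 0.0214). The catalytic subunits Polr1a and Polr1b, the shared subunit Polr1c and Ubtf did not pass, with differences of -0.40, -0.22, -0.03 and -0.08.

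All 5 genes grouped with box H/ACA fell, Nolc1 among them, which is not a core protein of that class. Of 4 box C/D genes 2 fell. Gar1 fell by 0.69 ± 0.15, Nolc1, a nucleolar chaperone of snoRNPs, by 0.64 ± 0.13, and Dkc1, the pseudouridine synthase, by 0.64 ± 0.14. Nhp2 and Nop10 each fell by 0.58. Nolc1 was at 46.0, 29.8 and 35.8 FPKM in NKT-2 and 28.3, 22.8 and 22.8 FPKM in NKT-3 of the lower set. In the higher set it was at 40.1, 29.8, 36.3 and 34.7 FPKM and at 19.7, 22.5 and 21.4 FPKM. No NKT-3 library reached an NKT-2 library of its set. Nop58, a core protein of box C/D snoRNPs, fell by 0.79 ± 0.16 (adjusted p = 0.000654, limma) and its partner Nop56 by 0.42 ± 0.14 (adjusted p = 0.0275), a call lost without any 1 of 5 libraries (library 2 or 4 of NKT-2, library 2, 3 or 6 of NKT-3). Fbl, at -0.38 ± 0.33, and Rrp9 of the U3 particle, at -0.22 ± 0.21, did not pass.

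The assembly factors of the large subunit were called more often than those of the small subunit, 6 of 8 against 4 of 12, a difference that was not tested. Nop16 (mm9 chr13:54685552-54691435) fell by 0.87 ± 0.15 (adjusted p = 0.000117, limma). It was at 71.2, 42.1 and 65.0 FPKM in NKT-2 and 34.2, 26.3 and 31.1 FPKM in NKT-3 of the lower set. In the higher set it was at 22.6, 19.9, 24.5 and 21.5 FPKM and at 8.18, 13.7 and 15.2 FPKM. The stages stood apart in both sets. Wdr12 and Bop1, which form the PeBoW complex with Pes1, fell by 0.88 ± 0.20 and 0.64 ± 0.16, but Pes1 was at -0.12 ± 0.18 (adjusted p = 0.633). Nop2, an rRNA methyltransferase, Nip7 and Gnl3 (nucleostemin) fell by 0.66, 0.50 and 0.49, and the helicase Ddx18 was at -0.18 ± 0.17. In the small subunit group, Tsr1 fell by 0.72 ± 0.16, Rrp12 by 0.68 ± 0.19, the endonuclease Nob1 by 0.49 ± 0.14 and Ltv1 by 0.44 ± 0.13. The other 8 did not pass, with Heatr1, Wdr43, Wdr75 and Utp20 at -0.43, -0.37, -0.31 and -0.25 and Imp3, Imp4, Ddx10 and Nop14 at -0.09, -0.04, -0.01 and 0.05. Of the remaining nucleolar proteins, nucleolin (Ncl) fell by 0.59 ± 0.17 and Mybbp1a by 0.57 ± 0.18, while nucleophosmin (Npm1) was at -0.48 ± 0.29 and the helicase Ddx21 at -0.07 ± 0.14. Npm1 has near-identical copies elsewhere in the genome, so its FPKM is uncertain.

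**Figure D3:**
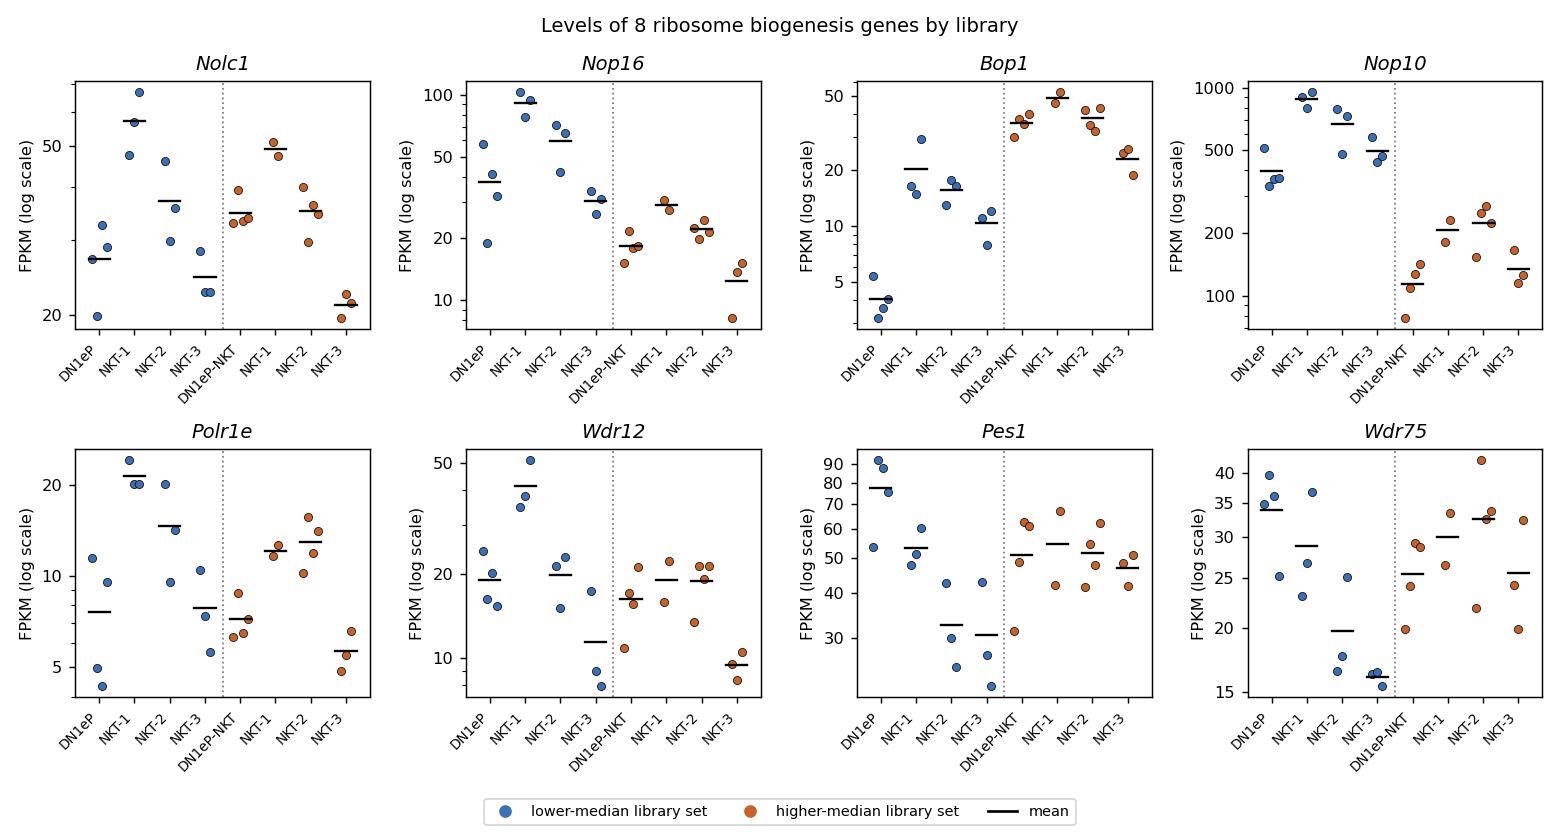
FPKM (log axis) of 8 ribosome biogenesis genes in each library by cell group, with the arithmetic mean as a bar; the dotted line separates the lower-median (blue) from the higher-median (orange) library set. Nop16 lies at 26.3 to 34.2 FPKM in NKT-3 and 42.1 to 71.2 FPKM in NKT-2 of the lower set, and Bop1 lies at 3.20 to 5.42 FPKM in DN1eP, below every other library shown.

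Of the lists around the 40 genes, those of subunit assembly and of Myc growth targets held falls alone among their called genes, and those of RNA polymerase I and ribosomal proteins held few calls. Of 34 other small subunit processome genes 14 fell and none rose, led by Pno1 (-0.84 ± 0.16). Of 41 tested other large subunit assembly genes 17 fell and none rose, led by Pa2g4 (-0.95 ± 0.17) and Rpf2 (-0.93 ± 0.21). Of 25 other growth genes known as Myc targets 17 fell and none rose, led by the folate carrier Slc19a1 (-1.30 ± 0.24), the DNA repair enzyme Apex1 (-1.19 ± 0.23) and the purine synthesis enzyme Gart (-1.07 ± 0.15). Of 14 other RNA polymerase I genes 2 fell and none rose, a share below the 20% of all genes, and 5 lay above 0. The network of Myc's partners and antagonists was split, with 5 of 16 higher and 4 lower. The antagonists Mxd1 and Mxd4 rose by 1.40 ± 0.18 and 0.96 ± 0.19, and Mxd3 fell by 1.84 ± 0.16. Mxd1 was at 5.01 ± 0.416 FPKM in NKT-2 and 17.4 ± 2.42 FPKM in NKT-3 of the higher set (mean ± SD, n = 4 and 3). None of the 75 cytosolic ribosomal protein genes was called by limma (1 at an unadjusted p under 0.05), and 43 lay above 0, while quantile normalization called 1 higher and 4 lower. All 25 cell cycle genes fell, and their summed level was 379 to 555 FPKM in NKT-3 against 1174 to 2387 FPKM in NKT-2. The part that the share of dividing cells had in the lower levels of the 40 genes was not tested.

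Between NKT-1 and NKT-2 no gene of the 40 passed the test, against 0.926% of all genes called in either direction and 0.429% called lower. At an unadjusted p under 0.05, 18 of the 40 and 1398 of 11663 tested genes were found (limma). All 40 differences were below 0, with a median of -0.35 against -0.12 over all genes. The shared sign was not special to the 40. Below 0 were also all 75 ribosomal protein genes, 40 of 41 other large subunit genes and 33 of 34 other small subunit genes. Of the cell cycle genes 19 of 25 were. At an unadjusted p under 0.05 (limma) these 4 lists held fewer genes, 5 of 75, 7 of 41, 8 of 34 and 7 of 25. The other Myc growth targets held 12 of 25. The median of all genes moved to -0.04 under upper-quartile scaling and to -0.02 when quantiles were normalized. Among the 40, the lowest adjusted p was that of Nolc1 at 0.0509 (-0.54 ± 0.13, limma). Gnl3 was at -0.61 ± 0.16 (adjusted p = 0.0675) and Nop56 at -0.54 ± 0.15 (adjusted p = 0.104). In the lower set alone all 40 were below 0, and in the higher set 35 were, where NKT-1 has 2 libraries. Myc was at -0.38 ± 0.19 (adjusted p = 0.44), and at -0.16 without NKT-1 library 5. With library 6 of NKT-2 and library 5 of NKT-3 dropped, 1 gene passed, and the same number passed without NKT-1 library 1, NKT-2 library 5, NKT-3 library 5 or NKT-3 library 6. Of the 2 stage differences together, none of the 40 genes differed between the library sets by the interaction test (limma F test, lowest adjusted p = 0.565, 3 at an unadjusted p under 0.05), and 0.48% of all genes did.

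DN1eP precursors had lower levels of many of these genes than NKT-1 cells. Of the 40, 16 were lower and none was higher, against 15.1% and 11.9% of all tested genes (limma, 13 libraries of the lower set). The median was -0.64 against -0.07 over all genes. All 5 genes grouped with box H/ACA, 3 of 6 RNA polymerase I genes, 3 of 8 large subunit factors, 2 of 12 small subunit factors, 1 of 4 box C/D genes, 1 of 4 other nucleolar genes and Myc were lower. The box H/ACA group counts Nolc1, a chaperone and not a core protein of the class. Gar1 was near the floor in DN1eP, at 0.857 to 2.46 FPKM. The values of Nop10, Nhp2 and Dkc1 lay outside their own deposited interval in 23, 13 and 6 of the 26 libraries. In 18 genes every DN1eP library lay below every NKT-1 library, against 19.4% of all genes, and in none did they lie above, against 12.3%. NKT-1 library 5 had the highest level of many of these genes, and without it the count called was 8. Without a filter on low values it was 9, where 2065 of 23168 genes were called.

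Bop1 (mm9 chr15:76283426-76307699), a subunit of the PeBoW complex, differed most. It was at 5.42, 3.20, 3.62 and 4.07 FPKM in DN1eP and at 16.5, 14.9 and 29.3 FPKM in NKT-1. The difference was -2.02 ± 0.27 (adjusted p = 9.75e-05, limma). Polr1e was at -1.47 ± 0.33 (adjusted p = 0.00463), with 11.5, 4.98, 4.34 and 9.55 FPKM in DN1eP and 24.1, 20.1 and 20.2 FPKM in NKT-1. Every DN1eP library of both genes lay below every NKT-1 library. Rrp12, a factor of subunit export, was at -1.42 ± 0.40, from 0.667 to 4.49 FPKM in DN1eP and 4.48 to 11.4 FPKM in NKT-1, with DN1eP library 4 reaching the NKT-1 range. Nop16 was at -1.36 ± 0.30 and Nop10 at -1.17 ± 0.23. Myc was at -1.30 ± 0.37 (adjusted p = 0.0186). Its difference was -0.84 without NKT-1 library 5, and the call was lost without that library or without DN1eP library 2 or 4 (adjusted p 0.0545 to 0.108). The other called genes were Polr1a, Rrn3, Nop58, Nhp2, Wdr12, Nolc1, Heatr1, Gar1, Dkc1 and Ddx21, with differences of -1.13 to -0.70. Over 25 alternatives the call of Rrn3 was kept in 11, those of Nop58, Heatr1 and Dkc1 in 17 each and that of Ddx21 in 19. Polr1a, Nhp2 and Gar1 kept theirs in 23 and Wdr12 and Nolc1 in 24. Without NKT-1 library 5 the calls of Polr1a, Rrn3, Nop58, Heatr1, Dkc1, Ddx21 and Rrp12 were lost. Pes1 stood apart from its PeBoW partners Bop1 and Wdr12 again, at 0.51 ± 0.26 (adjusted p = 0.158).

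The wider lists differed in how many genes were lower in DN1eP than in NKT-1. Of the other Myc growth targets 15 of 25 were lower and 1 was higher, led by Apex1 (-2.76 ± 0.33), Slc19a1 (-1.97 ± 0.34) and Gart (-1.79 ± 0.28). Of other large subunit genes 12 of 41 were lower and none was higher, led by Ppan (-1.67 ± 0.32), and of other small subunit genes 10 of 34 were lower and 1 was higher, led by Wdr46 (-1.62 ± 0.28). Of 14 other RNA polymerase I genes 2 were lower and 1 was higher (median 0.10), and of 75 ribosomal protein genes 5 were lower and none was higher, shares below the 15.1% of all genes. Max, the partner of Myc, was at -1.40 ± 0.35 and the antagonist Mxd1 at 2.66 ± 0.41. Mxd1 was at 4.01 to 16.4 FPKM in DN1eP and 0.638 to 1.40 FPKM in NKT-1. Of the 25 cell cycle genes 22 were lower, with sums of 451 to 760 FPKM in DN1eP and 2049 to 2395 FPKM in NKT-1 of the set, and their part in the lower levels was not tested.

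Against NKT-2 and NKT-3 the same DN1eP libraries differed in fewer of these genes and in both directions. Against NKT-2, 3 genes were higher and 3 lower, where 13.5% and 8.09% of all genes were called. Against NKT-3, 6 were higher and 2 lower, where 11% and 2.28% of all genes were called. Every DN1eP library lay above every NKT-2 library in 5 genes (14.3% of all genes) and below in 4 (10.3%). Against NKT-3 the counts were 9 above (14.4% of all genes) and 2 below (5.55%). The split of these calls depended on scaling. With each library scaled to its upper quartile, which shifts the median of all genes by -0.14 and -0.25, the counts were 1 higher and 10 lower against NKT-2 and 1 higher and 4 lower against NKT-3. With quantile normalization they were 3 and 6, and 3 and 3. Among all called genes the higher share went from 62.5% to 45.9% against NKT-2 and from 82.8% to 50.7% against NKT-3 with upper-quartile scaling. The counts also turned on single libraries. Against NKT-2, 11, 2 and 3 genes were called without DN1eP libraries 1, 2 and 3. Against NKT-3, 2, 4 and 4 were called without DN1eP libraries 2, 3 and 4, 3 without NKT-3 library 5 and none without NKT-3 library 6. Dropping library 6 of NKT-2 and library 5 of NKT-3, which held B cell and erythroid transcripts, gave 4 against NKT-2 and 2 against NKT-3. Dropping the 4 libraries with low ribosomal protein transcripts, which leaves 1 library each of NKT-2 and NKT-3 in the set, gave 1 and none (392 and 13 of all genes, limma). The lone library is then assumed to vary like the other groups.

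Bop1 stayed below both stages, by -1.72 ± 0.27 against NKT-2 (12.9, 17.7 and 16.4 FPKM, adjusted p = 0.000522, limma) and -1.16 ± 0.27 against NKT-3 (11.04, 7.92 and 12.1 FPKM, adjusted p = 0.0157). Against NKT-3 that call was lost without DN1eP library 2 or NKT-3 library 6 (adjusted p 0.0508 and 0.0923). Myc was at -0.94 ± 0.37 against NKT-2 (adjusted p = 0.0849), which passed without DN1eP library 1 (-1.21, adjusted p = 0.0161), without NKT-1 library 5 (adjusted p = 0.0454) and with upper-quartile scaling (-1.15, adjusted p = 0.041). It was at -1.35 ± 0.37 against NKT-3 (adjusted p = 0.0286), a call lost without any 1 of DN1eP libraries 2 to 4 or of the NKT-3 libraries (-1.45 to -1.14, adjusted p 0.055 to 0.101). Nop10 and Nhp2 were lower than in NKT-2, both at -0.74 ± 0.23, calls lost without DN1eP library 2 or 4 or NKT-2 library 5 or 7, and for Nop10 also without DN1eP library 3. Pes1 (mm9 chr11:3863978-3880007), the third member of the PeBoW complex, was the gene with the largest difference upward. It was at 53.4, 92.5, 88.2 and 75.8 FPKM in DN1eP, at 42.6, 30.1 and 25.0 FPKM in NKT-2 and at 42.7, 27.0 and 22.2 FPKM in NKT-3. The differences were 1.23 ± 0.26 (adjusted p = 0.00443) and 1.33 ± 0.26 (adjusted p = 0.00934), and every DN1eP library lay above both stages. Wdr75, a small subunit processome protein, was higher by 0.76 ± 0.23 and 1.02 ± 0.23, and Imp4, of the same particle, by 0.70 ± 0.21 and 0.69 ± 0.21. Against NKT-2 both calls were lost without DN1eP library 2 or 3 or NKT-2 library 5 or 6, and that of Imp4 also without DN1eP library 4. Nip7, Nop56 and Ltv1 were higher than in NKT-3 by 0.84, 0.79 and 0.77. Each upward call against NKT-3, Pes1 and Wdr75 included, was lost without NKT-3 library 6. The cell cycle list was lower than in NKT-2 in 21 of 25 genes, and against NKT-3 it was split into 3 higher and 2 lower, or none higher and 5 lower with upper-quartile scaling.

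DN1eP-NKT cells were compared with the higher set. Against NKT-1, 1 of the 40 genes, Myc, was higher and 5 were lower, where 10.4% and 9.24% of all genes were called and 19.6% in either direction. Against NKT-2, Myc again was the only gene higher and 3 were lower, where 13.8% and 10.5% of all genes were called. Against NKT-3, 11 were higher and none lower, where 18.3% and 11.4% of all genes were called and 29.7% in either direction. The medians of the 40 genes were -0.38, -0.12 and 0.30, beside -0.04, 0.01 and 0.05 over all genes. These 3 comparisons share the DN1eP-NKT libraries. In 18 genes every DN1eP-NKT library lay below both NKT-1 libraries, against 19.7% of all genes, and in 1 above, against 17.3%. Against NKT-2, 4 genes lay wholly below and 1 above (11% and 13.8% of all genes), and against NKT-3, 1 below and 9 above (16.2% and 20.8%). The counts turn on single libraries. Without NKT-1 library 2 no gene was called against NKT-1, and without NKT-1 library 1 or DN1eP-NKT libraries 3 or 4 the counts were 2, 2 and 3. Against NKT-3 the counts without DN1eP-NKT libraries 2 and 4 were 5 and 7, and leaving out NKT-3 libraries 1, 2 or 3 gave 7, 7 and 6.

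Myc was higher in DN1eP-NKT than in NKT-2 by 1.16 ± 0.20 (adjusted p = 0.000547, limma, 4 and 4 libraries) and than in NKT-1 by 0.78 ± 0.25 (adjusted p = 0.0376, 4 and 2 libraries). The second of these calls was lost without either NKT-1 library, without DN1eP-NKT libraries 2, 3 or 4, or without NKT-3 library 3 (0.67 to 0.80, adjusted p 0.051 to 0.169). Against NKT-3 it was at 0.56 ± 0.22 (adjusted p = 0.0675), and at 0.80 without DN1eP-NKT library 1 (adjusted p = 0.00113). Library 1 held the lowest Myc level of the 4. Of 12 stromal marker genes 8 passed the filter of 1 FPKM in 4 libraries, which a high level in the 4 DN1eP-NKT libraries alone can meet. These 8 were called higher in DN1eP-NKT than in each stage and than in DN1eP, where 10.4% to 18.3% of all genes were. Since the filter favours such genes, that count is no test of the list. Dcn, which was not tested, went the other way, at 0 to 0.231 FPKM in DN1eP-NKT and 0.575 to 25.2 FPKM in DN1eP. The part of stromal RNA in the Myc level of DN1eP-NKT was not tested in any of these comparisons.

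Nop10, Polr1e and Tsr1 were lower in DN1eP-NKT than in both NKT-1 and NKT-2. Nop10 was at 77.9, 108, 127 and 142 FPKM in DN1eP-NKT, 182 and 231 FPKM in NKT-1 and 154, 249, 268 and 222 FPKM in NKT-2, with differences of -0.88 ± 0.26 and -0.97 ± 0.21 (adjusted p = 0.0276 and 0.00346, limma). Polr1e was at 6.32, 8.77, 6.50 and 7.21 FPKM, below all 6 of these libraries, with differences of -0.69 ± 0.21 and -0.76 ± 0.17. No DN1eP-NKT library of either gene reached an NKT-1 or NKT-2 library. Tsr1 was at -0.75 ± 0.18 and -0.48 ± 0.15, and Nop16 (-0.65 ± 0.22) and Nolc1 (-0.49 ± 0.16) were lower than in NKT-1 alone. The calls of Nop10, Nop16, Nolc1 and Polr1e against NKT-1 were each lost without either NKT-1 library. Those of Nop16 and Nolc1 were also lost without DN1eP-NKT library 1, 3 or 4 and without some single libraries of NKT-2 or NKT-3. Each of these 2 calls was kept in 9 of 23 alternatives. That of Nop10 was also lost without DN1eP-NKT library 2, and that of Polr1e without DN1eP-NKT library 3. That of Tsr1 was lost without NKT-1 library 2 (adjusted p = 0.138), and against NKT-2 without DN1eP-NKT library 1, 2 or 4 or NKT-2 library 2 (adjusted p 0.055 to 0.0817).

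The 11 genes higher in DN1eP-NKT than in NKT-3 came from 5 roles, with 5 large subunit factors (Nop2, Wdr12, Bop1, Nop16 and Gnl3). The rest were 3 genes grouped with box H/ACA (Nhp2, Dkc1 and the chaperone Nolc1), Nop56, Rrp12 and Polr1a. Nop2 was at 26.7, 32.1, 30.8 and 32.1 FPKM against 16.6, 17.8 and 14.9 FPKM in NKT-3, a difference of 0.85 ± 0.14 (adjusted p = 0.000218, limma). Nop56 was at 105, 116, 132 and 122 FPKM against 75.5, 63.4 and 61.2 FPKM, a difference of 0.82 ± 0.17 (adjusted p = 0.00193). Rrp12 was at 9.48, 9.80, 9.63 and 9.05 FPKM against 5.68, 4.99 and 4.19 FPKM, a difference of 0.82 ± 0.17 (adjusted p = 0.00186). None of the 3 genes had overlapping libraries. Nhp2 had the largest difference, 0.99 ± 0.32 (adjusted p = 0.0316), with a spread of 60.4 to 165 FPKM in DN1eP-NKT that reached into the NKT-3 range of 39.8 to 75.1 FPKM. Nop16 was at 0.56 ± 0.19, and at 0.32 without NKT-3 library 1. Nop2, Nop56, Rrp12 and Nolc1 kept their call without any single library.

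In the same comparison with NKT-3, 14 of 25 other Myc growth targets were higher and none lower, led by Apex1 (1.37 ± 0.38), the nuclear transport GTPase Ran (1.23 ± 0.22) and Slc19a1 (1.21 ± 0.27). Other large and small subunit genes had 6 of 41 and 6 of 34 higher and none lower, shares of 14.6% and 17.6% that do not exceed the 18.3% of all genes. Mxd3 was at 3.05 ± 0.23, with 25.7 to 52.6 FPKM in DN1eP-NKT and 3.75 to 4.11 FPKM in NKT-3, and Mxd4 at -1.07 ± 0.16. Ribosomal protein genes went the other way, with 24 of 75 lower and none higher, for example Rps24 (-0.94 ± 0.18), or 35 lower and none higher with upper-quartile scaling and 19 lower and 4 higher with quantile normalization. Against NKT-2, 18 of 75 were lower. Many ribosomal protein genes have near-identical copies, so that single values are uncertain. All 25 cell cycle genes were higher than in NKT-3, and stromal markers moved with the DN1eP-NKT group as given above. The part of either in the result was not tested.

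**Figure D4:**
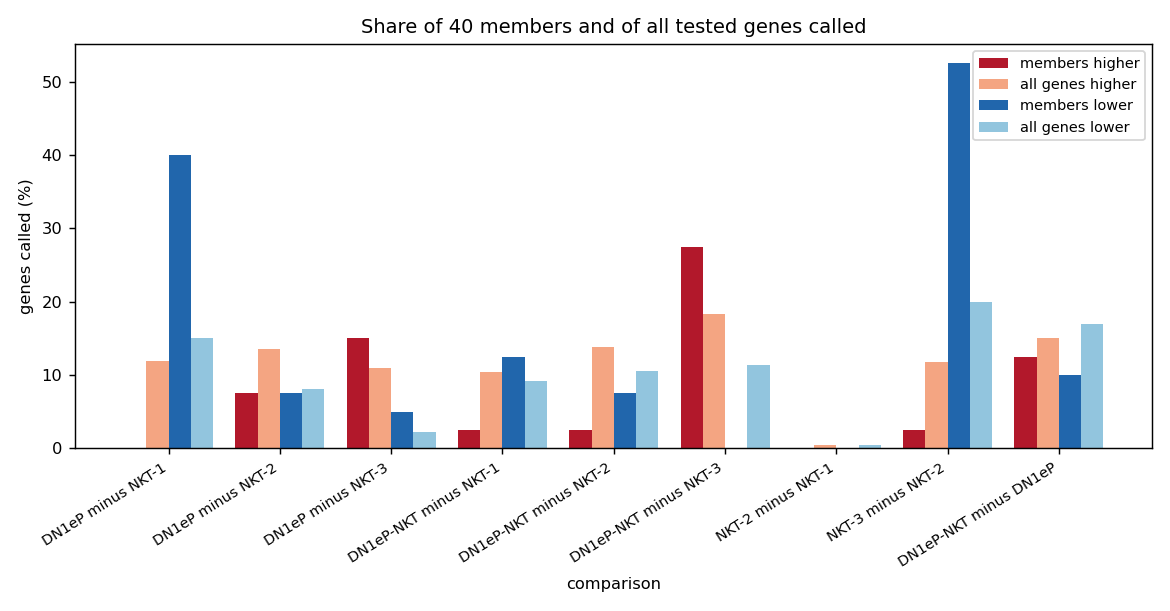
Share of the 40 genes (dark bars) and of all 11663 tested genes (light bars) called higher (red) or lower (blue) in the first group of each comparison, in percent. For NKT-3 minus NKT-2 the lower share is 52.5% of the 40 genes and 20% of all genes, and for DN1eP minus NKT-1 it is 40% and 15.1%.

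DN1eP and DN1eP-NKT never share a library set, so their difference was fitted over all 26 libraries with a set term that only the thymic libraries estimate. Its validity for these 2 groups is an assumption. Of the 40 genes 5 were higher and 4 lower in DN1eP-NKT, where 15.1% and 17% of all genes were called. Myc rose by 2.03 ± 0.34 (adjusted p = 6.01e-05, limma, 4 and 4 libraries), and its lowest DN1eP-NKT library, at 48.4 FPKM, lay above its highest DN1eP library at 31.1 FPKM. Bop1 rose by 1.67 ± 0.23 (adjusted p = 4.76e-06), from 3.20 to 5.42 FPKM in DN1eP to 30.3 to 40.2 FPKM in DN1eP-NKT. Among the thymic libraries Bop1 was 1.20 ± 0.13 higher in the higher set. Nhp2, Rrp12 and Nolc1 rose by 1.15, 1.06 and 0.52. Pes1 fell by 1.09 ± 0.29, Wdr75 by 0.89 ± 0.26, Imp4 by 0.73 ± 0.24 and Ddx10, a helicase of the small subunit pathway, by 0.70 ± 0.26. Bop1 and Pes1 of the same complex thus moved in opposite directions. Without the set term 20 of the 40 genes were called, 14 higher and 6 lower, and Ddx10 was at 0.02. In that fit 6136 of all 11663 tested genes were called, 4226 higher and 1910 lower. Without a filter on low values 4 of the 40 and 2876 of 23168 genes were called. The call of Rrp12 was lost without DN1eP library 3, that of Imp4 without DN1eP library 4 or DN1eP-NKT library 1, and those of Ddx10 and Nolc1 without any 1 of 12 and 15 libraries. Of the other Myc growth targets 9 of 25 were higher and none lower, led by Apex1 (2.29 ± 0.41), and 13 of 75 ribosomal protein genes were lower and none higher, or 19 lower and 4 higher with quantile normalization.

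**Figure D5:**
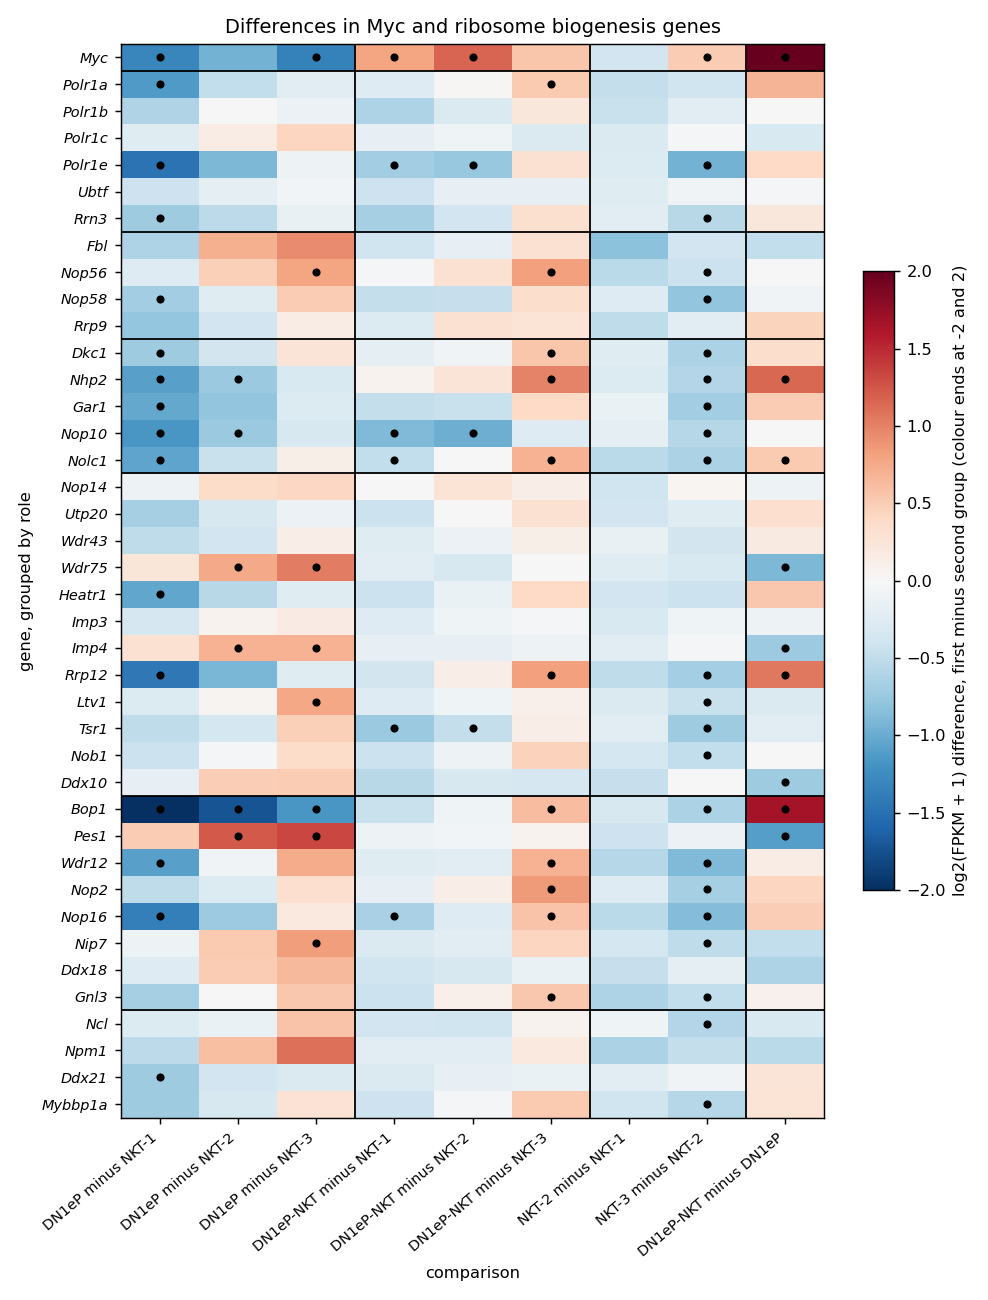
Difference of each of the 40 genes (rows, grouped by role) in the 9 comparisons (columns), as log2(FPKM + 1) of the first minus the second group; red is higher, blue is lower and black dots mark an adjusted p under 0.05. The column NKT-3 minus NKT-2 holds 21 blue cells with dots and 1 red, Myc, and Bop1 and Pes1 have opposite colours in DN1eP-NKT minus DN1eP.

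FPKM is scaled for transcript length, but the order of levels between genes depended on the library set, since Gar1 had a median of 2.49 FPKM in the lower and 33.9 FPKM in the higher set. The order is therefore a description within each set, and the places of Npm1, Nop10, Fbl, Nop56 and Nhp2 are uncertain for the reasons given above. Within the lower set Npm1 was the most abundant of the 40, with a median of 1671 FPKM over 13 libraries, followed by Nop10 at 515, Nop56 at 247 and Nhp2 at 118 FPKM. Utp20 and Gar1, at 2.57 and 2.49 FPKM, were the least abundant. In the higher set Npm1 led again at 1174 FPKM, followed by Fbl at 199, Ncl at 184 and Nop10 at 154 FPKM, and Utp20 at 8.46 and Polr1e at 8.77 FPKM were lowest. Of the genes that were called in no comparison between cell groups, Polr1b ranged from 6.82 to 18.9 FPKM, Polr1c from 26.9 to 88.5, Ubtf from 4.97 to 110, Rrp9 from 4.35 to 53.8, Nop14 from 7.54 to 28.3, Utp20 from 1.16 to 12.7, Wdr43 from 21.1 to 70.1, Imp3 from 13.2 to 112, Ddx18 from 33.3 to 85.1, Fbl from 8.89 to 326 and Npm1 from 580.3 to 3087 FPKM over all 26 libraries.

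Of the 19 genes with a promoter entry that were lower in NKT-3 than in NKT-2, 5 held a CACGTG (26.3%), as did 4 of the other 16 (25%). The windows printed at the start include the falling genes Rrn3, Nop2, Tsr1 and Ltv1 and, with the same 6 letters, Imp4 and Pes1, which did not pass the test between these stages.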

How the data were processed

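RNA of 26 libraries was sequenced, with 2 library kits named in the labels but not per library. The deposited values are FPKM per gene, made by the authors with TopHat2 2.0.6 and Cufflinks 2.1.1 on mm9, per the submitters' processing notes. FPKM of rows with the same symbol were added up. Of the symbols, 86 were absent from some file and 13 had a failed estimate, which left 23168. The 11663 genes that reached 1 FPKM in 4 or more of the 26 libraries were tested on log2(FPKM + 1), a scale that understates the change of low genes, with limma 3.58.1 (R 4.3.3, trend and robust moderation). The Benjamini-Hochberg method adjusted p-values over all tested genes, with a threshold of 0.05. DN1eP and DN1eP-NKT were compared with the stages of their library set in 2 fits of 13 libraries. Stages were compared over 18 libraries, and DN1eP-NKT with DN1eP over 26, with library set as a term. The sets were split at a median of 11 FPKM. Replicates were used as labelled. The genes, lists and comparisons were chosen with earlier results of these data known. Genes named are Myc, up to 4 called rises and 4 called falls per comparison and up to 3 called genes of a list, with others named after their values were seen. The fits were tested on simulated data. Alternatives were upper-quartile and quantile scaling, filters of 5 FPKM or none, a pseudocount of 0.1, the highest row per symbol, a replicate block, other terms for library set, and leaving out libraries. Leaving out 2 libraries with other cells, 4 libraries, or library 1 of DN1eP and DN1eP-NKT was added after seeing the data. Raw reads were not used here.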

Additional observations from a re-analysis of the deposited data

Results flagged for a closer look

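In each of the 5 cell groups, and in NKT-2 of the higher set alone, the highest and lowest FPKM of every gene of the 40 were compared with the rest by Dixon's 95% critical value, and 8 of 240 such checks had 1 library standing apart. By the level of that value chance flags about 1 in 20. Groups that hold both library sets are included, so a library can stand apart by its set. Nop2 was at 86.6 FPKM in NKT-1 library 5, against 33.0 to 43.0 FPKM in the other 4. In NKT-3 library 4, Wdr12 was at 17.5 FPKM (7.95 to 10.6 FPKM in the others) and Nolc1 at 28.3 FPKM (19.7 to 22.8 FPKM). Gnl3 was at 46.8 FPKM in NKT-3 library 5, which held erythroid and B cell transcripts, against 20.2 to 27.6 FPKM. Among DN1eP-NKT libraries Nop58 was at 68.5 FPKM in library 1 (109 to 117 FPKM in the others) and Nolc1 at 39.4 FPKM in library 2 (33.0 to 33.9 FPKM). Among DN1eP libraries Heatr1 was at 2.64 FPKM in library 3 (6.09 to 6.72 FPKM) and Ddx10 at 27.3 FPKM in library 4 (23.1 to 23.7 FPKM).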

How the results depend on the processing

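Counts below are genes of the 40 called in either direction, in the order DN1eP against NKT-1, NKT-2 and NKT-3, DN1eP-NKT against NKT-1, NKT-2 and NKT-3, NKT-2 against NKT-1, NKT-3 against NKT-2, and DN1eP-NKT against DN1eP. As reported they were 16, 6, 8, 6, 4, 11, 0, 22 and 9. Leaving out each library in turn gave 8 to 17, 2 to 11, 0 to 10, 0 to 6, 3 to 6, 5 to 16, 0 to 1, 19 to 24 and 7 to 13. With no filter on low values (23168 genes tested), they were 9, 2, 3, 3, 4, 6, 0, 10 and 4. Of all 23168 genes 2065, 1519, 284, 2042, 2561, 2934, 16, 2186 and 2876 were then called. Upper-quartile scaling gave 11 for DN1eP against NKT-2, 5 against NKT-3 and 7 for DN1eP-NKT against NKT-2 (2752, 1419 and 2979 of 11663 genes). Quantile normalization gave 7 for DN1eP-NKT against NKT-2 and 7 against NKT-3 (3010 and 3788 of 11663 genes). With all 26 libraries, DN1eP against NKT-2 had 15 calls with a set term and 13 without, where 4232 and 3258 of 11663 genes were called. In the fit of 26 libraries without it, DN1eP-NKT had 12 against NKT-1 and 3 against NKT-3 (2326 and 2077 of 11663 genes). Without the term, NKT-3 against NKT-2 had 5 calls and DN1eP-NKT against DN1eP 20 (1323 and 6136 of 11663 genes). The lower set alone gave 2 for NKT-3 against NKT-2 (1064 of 11663 genes). Without library 6 of NKT-2 and library 5 of NKT-3 the counts were 2 for DN1eP against NKT-3 and 1 for NKT-2 against NKT-1. Without NKT-2 libraries 6 and 7 and NKT-3 libraries 5 and 6, DN1eP had 1 call against NKT-2 and 0 against NKT-3. Without library 1 of DN1eP and DN1eP-NKT, DN1eP against NKT-2 had 11. The interaction of stage and set had 0 calls under every alternative run. Directions reversed in 3 of 2304 alternative values of named genes, in each case with no term for library set. These were Ddx10 in DN1eP-NKT against DN1eP (0.021), Nop10 in DN1eP against NKT-2 (0.16) and Nop16 in DN1eP-NKT against NKT-3 (-0.073). Of the rest, 1887 kept direction and side of the threshold, 406 lost the call and 8 gained it. The cause was not tested.

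Groups share replicate numbers in the labels. Residuals of same-numbered libraries correlated at -0.35 to 0.02 over 8 pairs in the lower set and -0.11 to 0.48 over 16 pairs in the higher set. Of 23 libraries 7 correlated best with their own number, so the numbers were not used as pairs. The highest values joined libraries numbered 1, NKT-1 to DN1eP-NKT at 0.48 and to NKT-2 at 0.44, and NKT-2 to DN1eP-NKT at 0.43. NKT-3 library 1 was at -0.10 to -0.04 with each of them. Median interval half-widths were 6.35% to 7.82% in the libraries so joined and 15.0% to 23.7% in the rest of the higher set. Whether they share a batch was not tested. With the replicate block, the counts in the order above were 6, 0, 0, 4, 4, 11, 0, 19 and 6. Of all 11663 tested genes 2591, 499, 647, 2052, 2861, 3261, 31, 3238 and 2385 were then called. Reads per library are unknown, so no counting error can be given.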
